A study of Arabidopsis thaliana with 12 samples.

Results

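The cysteine-rich receptor-like kinases, CRK genes, are one of the largest groups of receptor-like kinases in Arabidopsis thaliana. They were taken here as every named gene of the deposited count table whose symbol is CRK followed by a number of 4 to 49, which gave 36 of 33597 named genes. A CRK protein carries a secreted ectodomain with copies of the cysteine-rich DUF26 domain, a single membrane span and a cytosolic serine/threonine kinase. The family is known for roles in defence against microbes, in programmed cell death and in responses to reactive oxygen made outside the cell, and several members are known to be induced by salicylic acid, pathogens or ozone in leaves. The extracellular ligands of most members are not known. The letters CRK are also used for an unrelated family, the kinases related to calcium-dependent protein kinases, so the members were checked by their reading frames as described below.

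Messenger RNA was sequenced in 12 libraries from rosette leaves (numbers 3 and 4) in the Columbia-0 background, in 4 groups of 3 libraries. The groups were an ERF34 overexpressor with NaCl, the same overexpressor as mock, wild type with NaCl and wild type as mock. ERF34 encodes an AP2/ERF transcription factor, and the series asks how it bears on leaf senescence under salt. The overexpressor was line #1, with the ERF34 coding sequence behind the constitutive CsVMV promoter and GFP at the N-terminus, so every genotype comparison rests on 1 line. The labels give 1 treatment text for all libraries, in which leaves cut at 16 DAE (not spelled out) were floated for 1 day on 3 mM MES, pH 5.8, with 100 mM NaCl, and describe the mock groups only by the word mock. The sources used here do not say whether mock leaves were cut and floated for as long, so effects of salt, cutting and floating cannot be told apart below. ERF34 transcript averaged 935 ± 144 counts-per-million (CPM) in overexpressor salt leaves and 1051 ± 46.0 in overexpressor mock leaves, against 13.03 ± 6.14 in wild-type salt leaves and 8.83 ± 5.53 in wild-type mock leaves (SD, n = 3 each). Library totals were 10425430 to 12704898 counts in the overexpressor and 14301312 to 18398594 in wild type, so every overexpressor library was shallower than every wild-type library.

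The members lay close together in the genome. On the RefSeq assembly TAIR10.1, 34 of the 36 were on chromosome 4, and 30 of them stood in 4 tandem runs, taking neighbours to be in 1 run where at most 3 other genes or 50000 bases lay between them. The longest run, from CRK5 to CRK24, held 18 members between 12117491 and 12191704 of chromosome 4. A second run, from CRK36 to CRK40, held 5 members between 2231717 and 2292965, and the run from CRK30 to CRK34 held 5 members between 6963521 and 6989793. CRK28 and CRK29 formed a pair between 11398857 and 11405235. The other 6 members, CRK4 on chromosome 3, CRK25, CRK26, CRK27 and CRK41 on chromosome 4 and CRK42 on chromosome 5, stood alone.

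Reading frames translated from the assembly had 528 to 1043 codons before the stop, with a median of 662.5, and 28 of 36 members had 7 exons. DUF26 is recognised by 3 cysteines, with 8 residues between the first pair and 2 between the next. That spacing occurred at least 2 times in 34 members and 1 time in CRK24 and CRK27, and no member lacked it. The coding bases of the first such stretch are shown for the 6 members with the largest salt responses in wild type, which come from 3 different tandem runs. Each line is 39 bases of the coding strand, with the cysteine codons in capitals.
CRK31: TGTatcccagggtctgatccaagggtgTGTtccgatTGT
CRK37: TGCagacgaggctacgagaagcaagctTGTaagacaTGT
CRK38: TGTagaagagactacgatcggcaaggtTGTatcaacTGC
CRK36: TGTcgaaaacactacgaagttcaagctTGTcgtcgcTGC
CRK6: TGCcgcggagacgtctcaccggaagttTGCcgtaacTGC
CRK7: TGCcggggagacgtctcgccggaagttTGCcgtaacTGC
The cysteine codons line up in all 6 lines because the stretches were found by that spacing. The bases between them vary, least between the adjacent genes CRK6 and CRK7.

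Such similarity bears on how reads can be assigned. The share of 50-base windows of a member's exons that occur more than once in the genome was under 10% for 32 of 36 members. It was 22.0% for CRK6 and 16.5% for CRK8, which share most of these windows with each other, and 15.4% for CRK13 and 16.2% for CRK22, which also share them with each other. The counts of these 4 genes are therefore less certain than the others. In addition, 8 members overlap another annotated gene, among them CRK10 and CRK11 on opposite strands and CRK28 and CRK29 on the same strand, and the sources used here do not say whether counting used strand.

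The bases upstream of the annotated transcript starts are shown for the members with the largest salt responses in wild type, and for CRK11 and CRK21. TTGAC is the core of the W-box, the element bound by WRKY transcription factors, which are known regulators of defence genes and of leaf senescence. It was searched on both strands of the 250 bases upstream, and it stands in capitals as TTGAC, or as GTCAA where it lies on the other strand. CRK31, CRK37, CRK38, CRK6, CRK7 and CRK36 had the 6 largest salt responses in wild type, CRK11 held the most matches of the family, and CRK21 was called lower with salt in wild type. CRK21 was not the low end of the response, since CRK30 had a larger negative difference (log2 -1.05 in wild type) that was not called. Among members with negative differences that were not called, CRK30 had 0 matches, CRK29 had 1 and CRK18 had 3. Sequences are from RefSeq TAIR10.1 and read 5′ to 3′ toward the gene.
CRK31, chr4:6967459-6967708, plus strand: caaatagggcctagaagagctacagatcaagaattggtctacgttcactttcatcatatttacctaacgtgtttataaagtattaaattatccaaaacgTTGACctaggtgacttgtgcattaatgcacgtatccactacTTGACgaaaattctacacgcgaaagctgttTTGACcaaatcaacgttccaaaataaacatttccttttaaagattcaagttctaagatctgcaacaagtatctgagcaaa
CRK37, chr4:2238120-2238369, plus strand: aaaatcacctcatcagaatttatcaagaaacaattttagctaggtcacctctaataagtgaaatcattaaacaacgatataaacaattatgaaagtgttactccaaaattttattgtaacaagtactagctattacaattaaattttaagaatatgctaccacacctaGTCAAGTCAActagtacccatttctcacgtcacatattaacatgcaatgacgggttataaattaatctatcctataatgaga
CRK38, chr4:2241822-2242071, plus strand: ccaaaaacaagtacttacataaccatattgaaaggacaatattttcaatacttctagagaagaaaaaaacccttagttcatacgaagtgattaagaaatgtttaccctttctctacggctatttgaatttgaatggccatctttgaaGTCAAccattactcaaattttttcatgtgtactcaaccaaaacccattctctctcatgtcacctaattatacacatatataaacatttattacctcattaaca
CRK6, chr4:12121119-12121368, plus strand: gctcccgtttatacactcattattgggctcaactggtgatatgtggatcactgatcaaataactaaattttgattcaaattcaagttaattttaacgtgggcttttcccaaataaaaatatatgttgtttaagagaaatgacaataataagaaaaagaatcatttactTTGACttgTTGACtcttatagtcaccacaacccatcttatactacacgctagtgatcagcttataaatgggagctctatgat
CRK7, chr4:12125414-12125663, plus strand: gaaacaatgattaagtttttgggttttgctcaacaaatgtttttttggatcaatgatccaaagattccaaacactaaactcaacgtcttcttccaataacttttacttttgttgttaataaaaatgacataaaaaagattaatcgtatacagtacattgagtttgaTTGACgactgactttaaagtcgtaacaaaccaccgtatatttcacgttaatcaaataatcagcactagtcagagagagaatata
CRK36, chr4:2234690-2234939, minus strand: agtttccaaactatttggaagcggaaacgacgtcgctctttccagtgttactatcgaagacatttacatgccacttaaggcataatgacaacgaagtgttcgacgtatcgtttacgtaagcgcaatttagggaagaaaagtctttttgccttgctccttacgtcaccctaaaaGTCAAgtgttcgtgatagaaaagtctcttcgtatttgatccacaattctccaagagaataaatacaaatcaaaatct
CRK11, chr4:12143859-12144108, minus strand: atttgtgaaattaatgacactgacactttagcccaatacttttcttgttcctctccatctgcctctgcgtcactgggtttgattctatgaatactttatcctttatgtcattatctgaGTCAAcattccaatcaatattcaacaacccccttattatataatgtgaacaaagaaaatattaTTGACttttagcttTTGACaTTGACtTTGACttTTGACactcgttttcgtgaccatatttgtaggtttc
CRK21, chr4:12180937-12181186, minus strand: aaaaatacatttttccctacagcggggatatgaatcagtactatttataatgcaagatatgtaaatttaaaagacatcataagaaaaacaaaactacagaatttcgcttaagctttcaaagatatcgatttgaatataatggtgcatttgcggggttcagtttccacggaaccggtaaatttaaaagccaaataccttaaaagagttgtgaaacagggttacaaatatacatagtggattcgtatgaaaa

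At least 1 TTGAC was found upstream of 28 of the 36 members (77.8%), against 44.9% of 27443 upstream windows of the same length in the genome. At least 2 matches were found for 15 members (41.7%) and for 14.1% of all windows. CRK11 had 6 matches, CRK41 had 4, and CRK5, CRK16, CRK18 and CRK31 had 3 each, so the element was dense upstream of members with and without a salt response. Among members that rose with salt in wild type, 16 of 19 had a match and 9 had at least 2; among the other 15 tested members, 10 had a match and 5 had at least 2. The abscisic acid response core ACGTG, which can share its bases AC with TTGAC, was found for 11 members (30.6%) and 22.9% of all windows. The dehydration-response core CCGAC was found for 1 member (2.78%), against 12.0% of all windows, and the GCC-box GCCGCC, a known binding element of ERF factors, for 0 members, against 1.87% of all windows. An untranslated region before the start codon was annotated for 30 of the 36 members, and for the others the window ended at the start codon. The windows of 28 members overlapped no annotated exon. These are counts of letters in short windows and carry no test.

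Compared per kilobase of coding length, the tested members ranged from 0.288 CPM per kb for CRK27 to 136 for CRK36 in their mean over all libraries. CRK36 was followed by CRK10 at 116 and CRK18 at 64.9 CPM per kb. CRK10 is known from a gain-of-function allele that stunts growth and disturbs the vasculature, and CRK36 is known as a regulator of abscisic acid and osmotic stress responses. CRK33 had 0 counts in every library, which allows up to 0.0836 CPM in overexpressor salt, 0.0844 in overexpressor mock, 0.0600 in wild-type salt and 0.0621 in wild-type mock, taking 3 counts over a group as the limit and covering counting error only. CRK25 had at most 2 counts in any library. These 2 genes did not pass the filter on low counts, and the tests below cover the other 34 members.

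The order of levels was not the same in salt and mock leaves. CRK36 ranked 1st of the 36 members by mean CPM per kb in both salt groups, at 228 ± 117 in overexpressor salt and 278 ± 125 in wild-type salt, and 7th in overexpressor mock at 19.6 ± 4.87 and 11th in wild-type mock at 17.7 ± 2.90 (SD, n = 3 each). CRK10 ranked 2nd in overexpressor salt and 2nd in overexpressor mock, and 2nd in wild-type salt and 1st in wild-type mock, with levels of 129, 78.8, 126 and 129 CPM per kb in the same order of groups. Its libraries spread widely within a group, so that neither the order of these 4 groups nor that of CRK10 among its neighbours exceeds the replicate spread. CRK6 ranked 6th in overexpressor salt and 15th in overexpressor mock, and 3rd in wild-type salt and 16th in wild-type mock. Summed over all members, the family held 2174 ± 700.0 CPM in overexpressor salt leaves and 983.7 ± 71.8 in overexpressor mock leaves, against 2535 ± 367 in wild-type salt leaves and 1110.2 ± 328 in wild-type mock leaves (SD, n = 3 each). In bulk leaf RNA, a change in the number of cells of a type and a change in transcript per cell cannot be told apart.

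**Figure D1:**
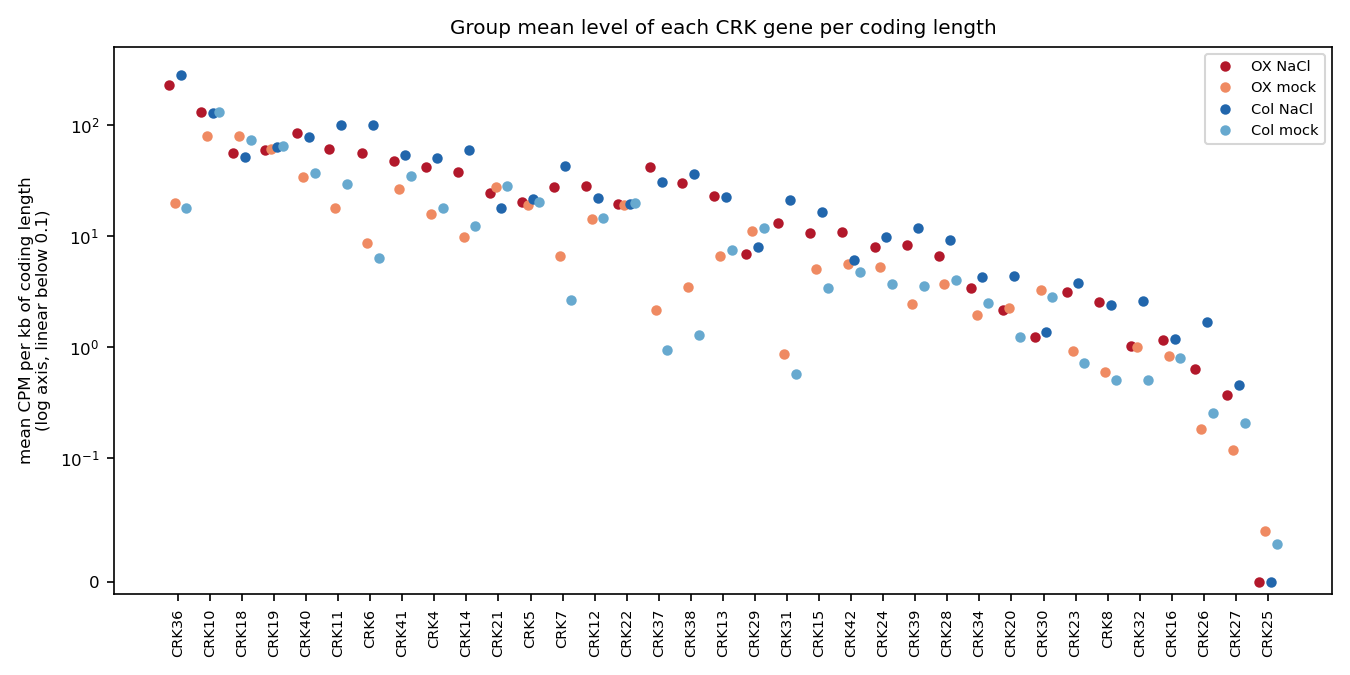
Mean level of each CRK gene in the 4 groups, as CPM per kb of coding length on a log axis that is linear below 0.1, with genes ordered by their mean over all 12 libraries. CRK36 has the highest level in both salt groups and ranks 7th in overexpressor mock and 11th in wild-type mock leaves, CRK10, CRK19, CRK5 and CRK22 show nearly the same level in salt and mock wild-type leaves, and CRK33, listed at 0, is not drawn.

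Many CRK genes were higher in salt leaves than in mock leaves of the same genotype, and hardly any were lower. By edgeR's quasi-likelihood test with Benjamini-Hochberg adjustment over all 18886 genes tested, 15 of 34 members rose with salt in the overexpressor (44.1%), where 9.72% of all genes tested rose. In wild type 19 of 34 rose (55.9%), where 20.3% of all genes rose. No member fell in the overexpressor, where 8.55% of all genes fell; 2 members had an unadjusted p under 0.05 in that direction, and DESeq2 called 1 of them, CRK30. In wild type 1 member fell, CRK21, where 21.1% of all genes fell. The median log2 fold change of the tested members was 1.04 in the overexpressor and 1.45 in wild type, while that of all genes tested was 0.02 and -0.01 in the same order. Without any model, every salt library was above every mock library of its genotype for 21 members in the overexpressor (18.7% of all genes) and for 22 in wild type (25.6% of all genes). The reverse held for 1 member in the overexpressor (18.3% of all genes) and 3 in wild type (26.7% of all genes).

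The members called in both genotypes were CRK4, CRK6, CRK7, CRK8, CRK13, CRK14, CRK15, CRK23, CRK26, CRK31, CRK36, CRK37, CRK38 and CRK40. The matching overlap over all genes was not computed, so the size of this one has no background value. The 2 salt comparisons share no library, but both come from 1 fit with a shared estimate of the spread. CRK11, CRK20, CRK24, CRK28 and CRK32 were called in wild type alone and CRK12 in the overexpressor alone, but edgeR called no member's salt response different between the genotypes. The calls were spread over the runs, with 8 members higher in the overexpressor and 10 in wild type of the 18 between CRK5 and CRK24. Of the 5 members between CRK36 and CRK40, 4 rose in each genotype. Of the 4 tested members between CRK30 and CRK34, 1 rose in the overexpressor and 2 in wild type.

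Replicate numbers were read as pairs in both salt comparisons, because same-numbered libraries deviated together from their group means. The correlations were 0.132 to 0.273 in the overexpressor and 0.306 to 0.401 in wild type, so the pairing is inferred. A fit with the replicate number as a block added calls. It called 5327 genes over the whole table in the overexpressor, against 3449 without the block, and 20 members higher, against 15. In wild type it called 9650 genes over the whole table, against 7814, and 22 members higher, against 19. The whole-table counts take both directions together. The members' counts with the block therefore have no matching background share. The members the block fit added were CRK11 (adjusted p = 0.0135), CRK24 (0.035), CRK28 (0.00793), CRK39 (0.0257) and CRK42 (0.0308) in the overexpressor, and CRK12 (0.0432), CRK39 (0.0085) and CRK41 (0.0301) in wild type. In that edgeR fit CRK30 was lower in both genotypes, with adjusted p = 0.0175 in the overexpressor and 0.0277 in wild type.

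**Figure D2:**
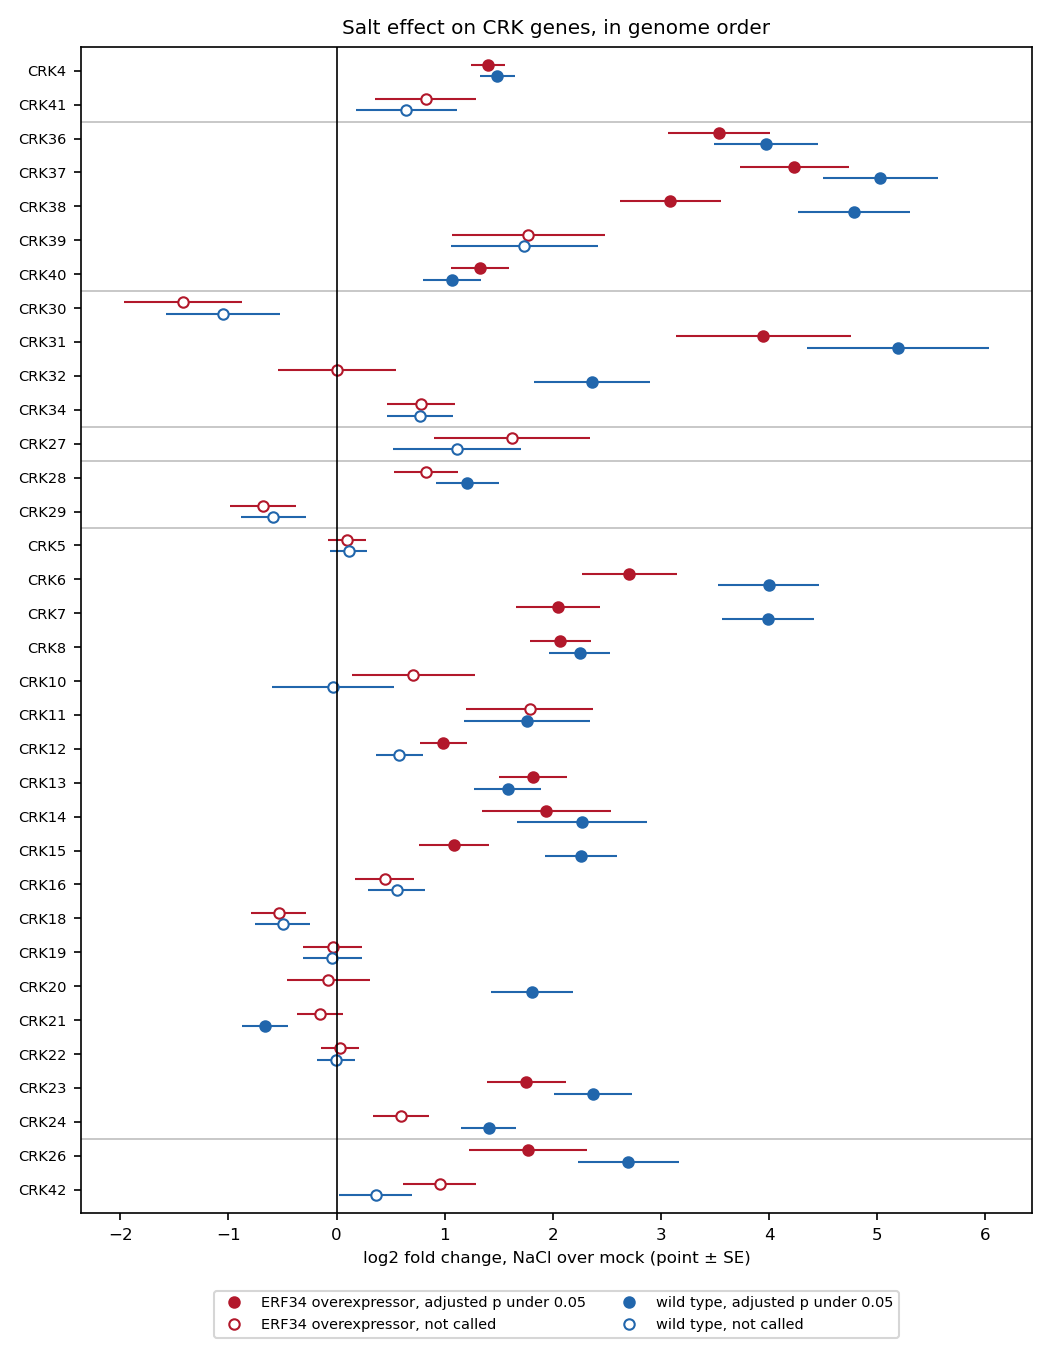
Log2 fold change of NaCl over mock leaves for the 34 tested CRK genes, in genome order, with the standard error as bars, in the ERF34 overexpressor above and wild type below for each gene. Filled points passed an adjusted p of 0.05, grey lines set off the tandem runs, and the points farthest right are CRK31, CRK37 and CRK38 in wild type.

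Within the run from CRK36 to CRK40, the first 3 genes had the strongest responses. CRK36 had 185, 610 and 559 CPM in overexpressor salt leaves, against 47.1, 28.2 and 40.9 CPM in overexpressor mock leaves. In wild type its levels were 468, 352 and 826 CPM in salt leaves and 30.5, 33.1 and 41.5 CPM in mock leaves. The lowest salt library stood well above the highest mock library in each genotype. Its log2 fold change was 3.54 ± 0.47 (SE) in the overexpressor, an 11.6-fold rise (edgeR adjusted p = 0.0015), and 3.97 ± 0.48 in wild type, a 15.7-fold rise (adjusted p = 0.000173).

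CRK37 had 36.3, 108 and 96.3 CPM in overexpressor salt leaves and 3.91, 1.95 and 6.78 CPM in overexpressor mock leaves. In wild type it had 62.3, 49.3 and 67.3 CPM in salt leaves and 1.59, 2.58 and 1.30 CPM in mock leaves. The groups were far apart in both genotypes, with an 18.8-fold rise in the overexpressor (log2 4.23 ± 0.50 SE, edgeR adjusted p = 0.000847) and a 32.6-fold rise in wild type (log2 5.03 ± 0.53 SE, adjusted p = 9.57e-05).

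CRK38, the next gene along, had 31.1, 68.8 and 74.9 CPM in overexpressor salt leaves and 8.73, 2.64 and 8.98 CPM in overexpressor mock leaves. Its wild-type levels were 56.0, 74.8 and 78.9 CPM in salt leaves and 1.98, 3.74 and 1.86 CPM in mock leaves. As for its neighbours, no salt library came near a mock library. The rise was 8.50-fold in the overexpressor (log2 3.09 ± 0.47 SE, edgeR adjusted p = 0.00284) and 27.6-fold in wild type (log2 4.79 ± 0.52 SE, adjusted p = 0.000105). CRK40, at the end of the run, rose less, with log2 fold changes of 1.33 ± 0.27 in the overexpressor and 1.07 ± 0.27 in wild type (edgeR adjusted p = 0.00921 and 0.00918). CRK39 differed by 1.77 ± 0.71 in the overexpressor and 1.74 ± 0.68 in wild type and missed the threshold without the block (adjusted p = 0.106 and 0.062). Its wild-type mock libraries ran from 1.26 to 14.8 CPM.

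In wild type the largest fitted response of the family was that of CRK31, in the run from CRK30 to CRK34; in the overexpressor it was that of CRK37. CRK31 had 8.44, 34.0 and 36.4 CPM in overexpressor salt leaves and 0.919, 3.22 and 1.10 CPM in overexpressor mock leaves. In wild type it had 35.8, 34.8 and 56.8 CPM in salt leaves and 0.132, 2.71 and 0.620 CPM in mock leaves, where the lowest library rested on 2 counts. Salt and mock libraries did not overlap, although the mock libraries differed among themselves by up to 20.5-fold. The rise was 15.4-fold in the overexpressor (log2 3.95 ± 0.81 SE, edgeR adjusted p = 0.0097) and 36.6-fold in wild type (log2 5.19 ± 0.84 SE, adjusted p = 0.000838). Without mock replicate 2 the log2 value was 4.69 in the overexpressor and 6.76 in wild type.

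CRK30, the next gene upstream of CRK31 on the same strand, did not pass the test without the block in either genotype (log2 -1.42 ± 0.54 SE in the overexpressor and -1.05 ± 0.53 in wild type, edgeR adjusted p = 0.0939 and 0.134). In the overexpressor it was called lower with the block, by DESeq2 (adjusted p = 0.0419) and in the fit of only the 2 groups compared (0.0344), and in wild type with the block and without mock replicate 2 (0.0366). CRK30 had 2.54, 2.11 and 3.04 CPM in overexpressor salt leaves against 8.43, 4.10 and 8.04 CPM in mock leaves, which did not overlap, and 4.71, 1.29 and 2.63 CPM in wild-type salt leaves against 5.68, 2.45 and 9.66 CPM in mock leaves, which did. CRK32, just downstream of CRK31, had 1.20, 1.67 and 3.12 CPM in overexpressor salt leaves and 2.37, 1.66 and 1.89 CPM in overexpressor mock leaves. In wild type CRK32 had 3.89, 6.002 and 5.38 CPM in salt leaves and 0.462, 2.06 and 0.434 CPM in mock leaves. The overexpressor groups of CRK32 overlapped fully, while the wild-type groups were apart. The log2 difference of CRK32 was 0.01 ± 0.54 (SE) in the overexpressor, and in wild type CRK32 rose 5.14-fold (log2 2.36 ± 0.54 SE, edgeR adjusted p = 0.00555; 3.48 without mock replicate 2). CRK30 and CRK32 are given by library because of their values, not by the rule for named genes.

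In the long run from CRK5 to CRK24, the largest responses were those of CRK6 and CRK7, neighbours whose products are known to act in responses to extracellular reactive oxygen. CRK6 had 123, 107 and 113 CPM in overexpressor salt leaves and 9.27, 21.1 and 22.1 CPM in overexpressor mock leaves. In wild type CRK6 had 158, 313 and 143 CPM in salt leaves and 7.20, 19.3 and 12.0 CPM in mock leaves. All salt libraries were above all mock libraries, by 6.54-fold in the overexpressor on the fitted scale (log2 2.71 ± 0.44 SE, edgeR adjusted p = 0.00382) and 15.9-fold in wild type (log2 3.99 ± 0.46 SE, adjusted p = 0.000142).

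CRK7 had 47.0, 60.8 and 55.2 CPM in overexpressor salt leaves and 8.66, 11.2 and 19.5 CPM in overexpressor mock leaves. In wild type it had 68.7, 109.8 and 71.7 CPM in salt leaves and 3.04, 8.64 and 4.09 CPM in mock leaves. Every overexpressor salt library lay below every wild-type salt library, and every overexpressor mock library above every wild-type mock library, the closest pair being 8.66 CPM in the overexpressor and 8.64 CPM in wild type. The rise was 4.13-fold in the overexpressor (log2 2.05 ± 0.39 SE, edgeR adjusted p = 0.00725) and 15.8-fold in wild type (log2 3.99 ± 0.42 SE, adjusted p = 9.95e-05). CRK8, next to CRK7 and sharing sequence with CRK6, rose at a low level, by 4.19-fold in the overexpressor and 4.75-fold in wild type (edgeR adjusted p = 0.00159 and 0.000187).

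CRK23, whose frame holds the DUF26 spacing 3 times, sits near the far end of the run. It had 6.87, 6.16 and 10.3 CPM in overexpressor salt leaves and 1.61, 2.54 and 2.76 CPM in overexpressor mock leaves. Its wild-type levels were 11.7, 8.59 and 7.74 CPM in salt leaves and 1.12, 2.90 and 1.36 CPM in mock leaves. Salt and mock libraries were apart in both genotypes, and CRK23 rose 3.38-fold in the overexpressor (log2 1.76 ± 0.36 SE, edgeR adjusted p = 0.00976) and 5.17-fold in wild type (log2 2.37 ± 0.36 SE, adjusted p = 0.000583). Outside the runs, CRK26 rose at very low levels. It had 0.897, 1.41 and 1.48 CPM in overexpressor salt leaves and 0.230, 0.390 and 0.473 CPM in overexpressor mock leaves, and 2.66, 3.83 and 3.64 CPM in wild-type salt leaves and 0.264, 1.03 and 0.248 CPM in wild-type mock leaves. The groups did not overlap, with log2 fold changes of 1.77 ± 0.55 SE in the overexpressor (edgeR adjusted p = 0.0462) and 2.70 ± 0.47 SE in wild type (adjusted p = 0.00117; 3.68 without mock replicate 2). The overexpressor call of CRK26 was lost without replicate 2 or 3 of overexpressor salt and without any 1 library of overexpressor mock or wild-type salt, with adjusted p up to 0.155. It was also lost with all libraries kept but no filter on low counts (edgeR adjusted p = 0.0527).

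Other members of the long run rose between 1.98-fold and 4.82-fold. CRK13, whose overexpression is known to raise resistance to Pseudomonas, rose by 1.82 ± 0.31 on the log2 scale in the overexpressor and by 1.58 ± 0.31 in wild type (edgeR adjusted p = 0.00485 and 0.00245). CRK14 rose by 1.94 ± 0.60 in the overexpressor (adjusted p = 0.0467) and by 2.27 ± 0.60 in wild type (adjusted p = 0.0121; 3.24 without mock replicate 2). CRK15 rose by 1.09 ± 0.32 in the overexpressor (adjusted p = 0.0405) and by 2.26 ± 0.33 in wild type (adjusted p = 0.000464). The overexpressor call of CRK14 was lost without any 1 library of overexpressor salt or wild-type salt, without replicate 1 or 3 of overexpressor mock and without replicate 3 of wild-type mock, with adjusted p up to 0.151. It was also lost with all libraries kept but no filter on low counts (edgeR adjusted p = 0.0644). The overexpressor call of CRK15 was lost without any 1 overexpressor library and without replicate 3 of either wild-type group, with adjusted p up to 0.141. CRK12 rose by 0.99 ± 0.22 in the overexpressor (adjusted p = 0.0128), against a difference of 0.58 ± 0.22 in wild type (adjusted p = 0.0521). CRK24, the shortest frame of the family, differed by 0.60 ± 0.26 in the overexpressor (adjusted p = 0.131) and rose by 1.41 ± 0.26 in wild type (adjusted p = 0.00165).

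Overexpression of CRK4, CRK5, CRK19 or CRK20 is known to trigger cell death in leaves. Of these 4 genes, CRK4 rose with salt in both genotypes and CRK20 in wild type. CRK4 rose by 1.40 ± 0.16 on the log2 scale in the overexpressor and by 1.49 ± 0.16 in wild type (edgeR adjusted p = 0.000651 and 9.57e-05). CRK5 differed by 0.10 ± 0.17 in the overexpressor and 0.11 ± 0.17 in wild type, and CRK19 by -0.04 ± 0.27 and -0.04 ± 0.27 in the same order, none of them past the threshold. CRK20 had 2.24, 5.63 and 5.09 CPM in overexpressor salt leaves and 5.06, 3.61 and 4.89 CPM in overexpressor mock leaves, which overlap. In wild type CRK20 had 8.05, 7.59 and 10.4 CPM in salt leaves and 1.39, 3.74 and 2.29 CPM in mock leaves, a 3.50-fold rise (log2 1.81 ± 0.38 SE, edgeR adjusted p = 0.00361). CRK28, known to act with the immune receptor FLS2 and its partner BAK1, differed by 0.83 ± 0.30 in the overexpressor (adjusted p = 0.0774) and rose by 1.21 ± 0.29 in wild type (adjusted p = 0.00738). CRK29, which overlaps it, differed by -0.68 ± 0.31 in the overexpressor and -0.59 ± 0.30 in wild type, short of the threshold. CRK20 is given by library because of its values.

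CRK10 and CRK11 overlap at their 3′ ends on opposite strands, and CRK11 alone of the pair was called with salt, in wild type. CRK10 had 136, 379 and 262 CPM in overexpressor salt leaves and 113, 256 and 106 CPM in overexpressor mock leaves. In wild type CRK10 had 156, 367 and 240 CPM in salt leaves and 96.5, 421 and 260 CPM in mock leaves. Replicate 2 was the highest library in each of the 4 groups, and salt and mock overlapped in both genotypes (log2 0.71 ± 0.57 SE in the overexpressor and -0.03 ± 0.56 in wild type, edgeR adjusted p = 0.409 and 0.973). CRK11, the member with 6 upstream TTGAC matches, had overlapping groups in the overexpressor and a log2 difference of 1.78 ± 0.59 (adjusted p = 0.0581). It rose 3.38-fold in wild type (log2 1.76 ± 0.58 SE, adjusted p = 0.0329), where its lowest salt library had 149 CPM and its highest mock library 98.7 CPM. That call was lost without mock replicate 1 (adjusted p = 0.0768), mock replicate 3 (0.0841), salt replicate 2 (0.0624) or salt replicate 3 (0.0901), and the log2 value was 2.34 without mock replicate 2.

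In the edgeR fit of all 12 libraries without a block, CRK21 was the one member called lower, in wild type, while CRK30, with larger negative differences, missed the threshold. CRK21 had 41.1, 42.5 and 69.0 CPM in overexpressor salt leaves and 54.0, 50.9 and 65.2 CPM in overexpressor mock leaves, which overlap. In wild type it had 34.9, 33.9 and 42.6 CPM in salt leaves and 53.8, 51.5 and 71.1 CPM in mock leaves, which do not. CRK21 fell by 0.66 ± 0.21 on the log2 scale in wild type (edgeR adjusted p = 0.0286). The call was lost without wild-type mock replicate 3 (adjusted p = 0.111), salt replicate 1 (0.0802) or salt replicate 2 (0.0886). CRK18 had 65.9, 138 and 123 CPM in overexpressor salt leaves and 179, 119 and 176 CPM in overexpressor mock leaves, which overlap, and 97.2, 98.6 and 111 CPM in wild-type salt leaves and 144, 127 and 163 CPM in wild-type mock leaves, which do not. The differences of CRK18, -0.54 ± 0.25 in the overexpressor and -0.50 ± 0.25 in wild type, did not pass the threshold in that fit (adjusted p = 0.166 and 0.138). In wild type CRK18 was called lower by edgeR with only the 2 groups compared (adjusted p = 0.0362) and without replicate 1 of overexpressor salt (0.0346).

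**Figure D3:**
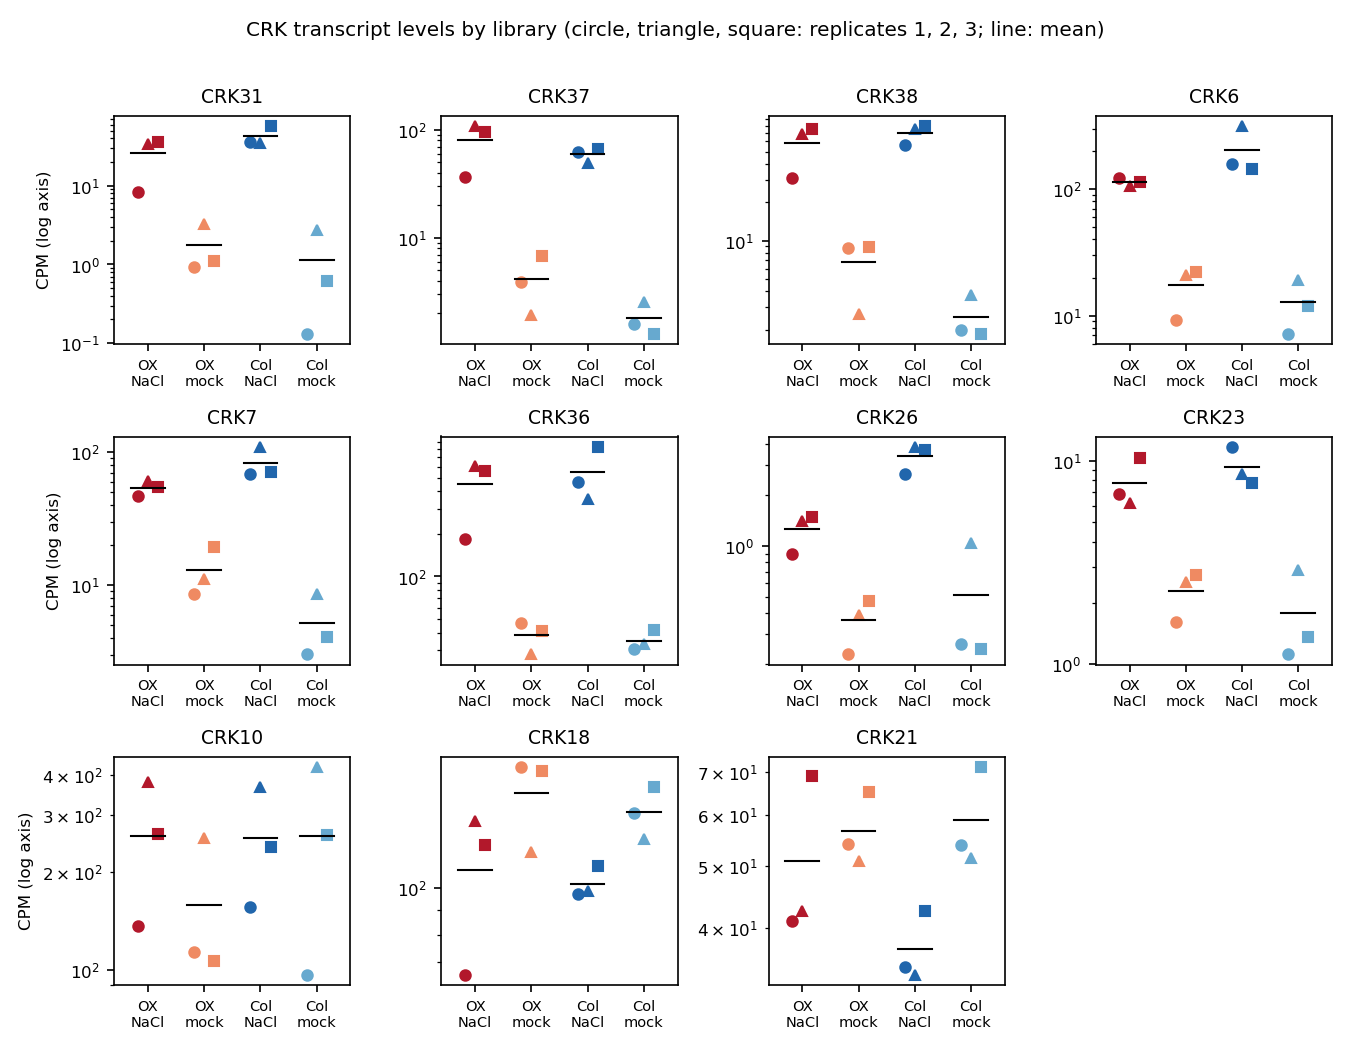
CPM of the 11 members named by rule in each library, on log axes that differ between panels, with replicates 1, 2 and 3 as circles, triangles and squares and the group mean as a line. In the panels of CRK31, CRK37, CRK38, CRK6, CRK7, CRK36, CRK26 and CRK23 every salt library lies above every mock library of its genotype, while CRK10 has replicate 2 highest in every group and CRK21 lies lower in wild-type salt leaves, at 33.9 to 42.6 CPM.

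The libraries within a group did not contribute alike. Replicate 1 of overexpressor salt leaves was the lowest of its group for 28 of 34 members (82.4%), against 45.0% of all genes tested. In wild-type mock leaves replicate 1 was the lowest for 21 members (61.8%; 28.2% of all genes) and replicate 2 the highest for 21 (61.8%; 37.9% of all genes). The highest wild-type mock library was more than 3 times the lowest for 9 members (26.5%), against 8.51% of all genes. The part of these library differences in the results was not tested.

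Between the genotypes, no member was called at either treatment in the edgeR fit without a block. In salt leaves, where 2.07% of all genes tested were higher and 2.32% lower in the overexpressor, 0 of 34 members passed in either direction. An unadjusted p under 0.05 was reached by 1 member as higher and 3 as lower, and by 22.3% of all genes in both directions together. DESeq2 called CRK26 lower. With the replicate block, edgeR called CRK26 lower (adjusted p = 0.0283) and CRK21 higher (0.0326). In mock leaves, where 0.0635% of all genes were higher and 0.0371% lower, again 0 members passed in either direction. An unadjusted p under 0.05 was reached by 4 members as higher and 0 as lower, and by 7.34% of all genes in both directions together. DESeq2 called none of the members. The median log2 difference of overexpressor over wild type was -0.26 over the 34 members in salt leaves and -0.04 in mock leaves, with 0.02 and -0.02 over all genes in the same order. Every overexpressor salt library was below every wild-type salt library for 6 members, CRK6, CRK7, CRK20, CRK26, CRK32 and CRK39 (12.4% of all genes tested), and above them for 1, CRK42 (13.5% of all genes). In mock leaves the same separation was seen for CRK7 as higher (8.26% of all genes) and for no member as lower (7.46% of all genes).

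The members at the edges of this comparison had sizeable differences with wide errors. CRK26 differed by -1.42 ± 0.43 on the log2 scale between overexpressor and wild-type salt leaves (edgeR adjusted p = 0.0871), CRK32 by -1.35 ± 0.51 (0.154) and CRK20 by -1.01 ± 0.37 (0.143). CRK42 differed by 0.82 ± 0.33 (0.184), and CRK21 by 0.45 ± 0.21 (0.24). In mock leaves the largest differences were 1.44 ± 0.49 for CRK38 (adjusted p = 0.495), 1.32 ± 0.40 for CRK7 (0.407) and 1.22 ± 0.52 for CRK37 (0.641), all higher in the overexpressor. These values do not show that the genotypes had the same levels.

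The salt response itself was compared between the genotypes as an interaction, in which 0 of 34 members passed edgeR's test in either direction, as did 0 of 18886 genes (0%). An unadjusted p under 0.05 was reached by 6 members and 13.7% of all genes tested. The share of all genes was not split by direction, so the direction of the members has no background value. All 6 were toward a smaller response in the overexpressor, namely CRK7 at -1.94 ± 0.54, CRK20 at -1.88 ± 0.54, CRK32 at -2.36 ± 0.76, CRK38 at -1.70 ± 0.65, CRK15 at -1.17 ± 0.45 and CRK24 at -0.81 ± 0.36 on the log2 scale. Their edgeR adjusted p-values were 0.156 for CRK7, 0.160 for CRK20, 0.203 for CRK32, 0.283 for CRK38, 0.289 for CRK15 and 0.358 for CRK24. DESeq2 called 659 genes in this contrast, among them CRK7 (adjusted p = 0.0229) and CRK20 (adjusted p = 0.028), both with the smaller response in the overexpressor. Over all alternatives the adjusted p ran from 0.0229 to 0.34 for CRK7 and from 0.028 to 0.325 for CRK20.

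**Figure D4:**
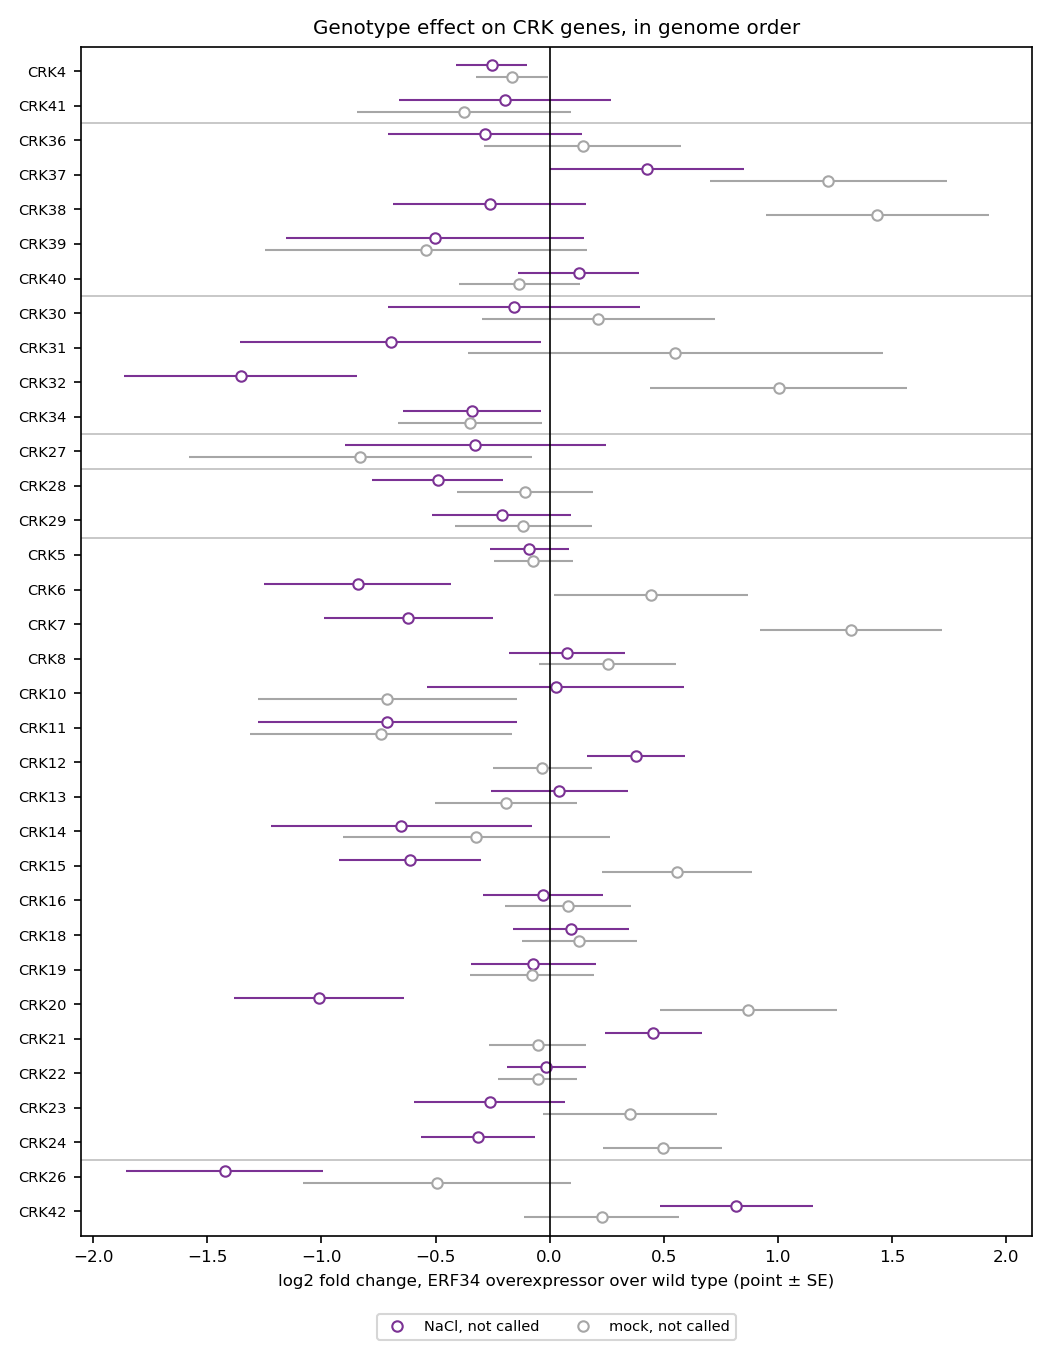
Log2 fold change of the ERF34 overexpressor over wild type for the 34 tested CRK genes, in genome order, with the standard error as bars, in NaCl leaves above and mock leaves below for each gene. All points are open because none passed an adjusted p of 0.05, and CRK7, CRK20 and CRK32 lie above 0 in mock leaves and below 0 in NaCl leaves.

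Of 17 immune receptors and their signalling partners, 5 rose with salt in the overexpressor, where 9.72% of all genes rose, and 8 in wild type, where 20.3% rose, and none fell in either (0 with an unadjusted p under 0.05, and 0 by DESeq2). With the replicate block, 9 rose in the overexpressor and 13 in wild type. That fit also called more genes over the whole table, 5327 against 3449 in the overexpressor and 9650 against 7814 in wild type. These totals were not split by direction, so the list counts with the block have no matching background share. The co-receptor BKK1 rose by 1.42 ± 0.38 on the log2 scale in the overexpressor and by 1.96 ± 0.39 in wild type, and the chitin co-receptor CERK1 by 0.82 ± 0.18 and 1.65 ± 0.18 in the same order (edgeR adjusted p = 0.0278 and 0.0026 for BKK1, 0.0118 and 0.000103 for CERK1). The flagellin-induced kinase gene FRK1 differed by -0.65 ± 0.36 in the overexpressor (adjusted p = 0.227) and rose by 1.83 ± 0.36 in wild type (adjusted p = 0.00273), with an adjusted p of 0.0859 for the interaction. The 3 tested wall-associated kinases rose in both genotypes, with the largest value for WAK3 at 2.29 ± 0.34 in the overexpressor and 4.02 ± 0.36 in wild type (adjusted p = 0.00244 and 5.12e-05). WAK1 alone of the 3 was called lower in overexpressor than in wild-type salt leaves, with a log2 difference of -0.57 ± 0.14 (edgeR adjusted p = 0.0430). DESeq2 called 2 of the 3 lower in that comparison and 2 in the interaction, where edgeR called 0.

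Of 9 tested DUF26 genes outside the rule, which are CRK2, CRK3 and the plasmodesmata-located PDLP genes, 0 rose or fell with salt in the overexpressor (1 and 1 with an unadjusted p under 0.05, 0 by DESeq2) and 3 rose in wild type. Over all genes tested, 9.72% rose and 8.55% fell in the overexpressor, and 20.3% rose and 21.1% fell in wild type. PDLP5, known to restrict plasmodesmata in defence, rose by 1.23 ± 0.25 in wild type (edgeR adjusted p = 0.00291) and was lower in overexpressor than in wild-type salt leaves, with a log2 difference of -1.37 ± 0.25 (adjusted p = 0.0212). CRK2, known for a part in salt tolerance through callose deposition, differed by 0.73 ± 0.29 in the overexpressor (adjusted p = 0.101) and rose by 1.17 ± 0.29 in wild type (adjusted p = 0.00825). RefSeq lists 3 further loci under other names with a CRK synonym, CRK9, CRK17 and CRK45. Of these, 2 rose in the overexpressor (9.72% of all genes) and 3 in wild type (20.3% of all genes). CRK45, known to act in abscisic acid and defence responses, rose by 2.84 ± 0.25 in the overexpressor and 3.34 ± 0.26 in wild type (adjusted p = 0.000187 and 2.45e-05), and these 3 loci were added after the values of the series were known.

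Some markers of leaf cell types were lower in salt leaves, where 8.55% of all genes tested fell in the overexpressor and 21.1% in wild type. Of 5 mesophyll markers 1 fell in the overexpressor and 3 in wild type, and their summed level was 10163 to 12741 CPM in overexpressor salt and 13569 to 15087 in overexpressor mock libraries, against 7763 to 8563 in wild-type salt and 13597 to 15235 in wild-type mock libraries. Of 4 vascular markers 1 fell in the overexpressor and 3 in wild type, with sums of 648 to 879 CPM in overexpressor salt, 1095 to 1117 in overexpressor mock, 650 to 718 in wild-type salt and 1066 to 1214 in wild-type mock libraries. Of 4 tested guard cell and epidermis markers 0 fell in the overexpressor (1 with an unadjusted p under 0.05, 0 by DESeq2) and 2 fell in wild type, with sums of 82.2 to 88.8 CPM in overexpressor salt, 98.6 to 124 in overexpressor mock, 59.0 to 67.7 in wild-type salt and 77.1 to 129 in wild-type mock libraries. Among 5 flower and root markers RHD6 was at 0 counts in every group and AP3 in 2 of the groups, and the list summed to 27.4 to 32.1 CPM in overexpressor salt, 25.7 to 45.5 in overexpressor mock, 19.4 to 28.7 in wild-type salt and 20.8 to 42.8 in wild-type mock libraries. Most of that sum was SCR, which leaf bundle sheath also expresses. PI was called higher with salt in the overexpressor (edgeR adjusted p = 0.0406), with a mean of 1.70 CPM in salt leaves and 0.0651 CPM in mock leaves, the second under the limit that 3 counts set. Its libraries had 0, 2.73 and 2.38 CPM in salt and 0, 0.195 and 0 CPM in mock leaves, which overlap. The part of cell-type makeup in the CRK results was not tested.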

How the data were processed

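Leaf mRNA of 4 groups with 3 libraries each was sequenced from strand-specific poly(A) libraries, per the labels' protocols, which call the replicates independent and biological. TopHat, Cufflinks and the TAIR10 build are named in the submitters' processing notes, with no versions. The authors deposited whole-number read counts per gene, which were used as they stand. Library totals were 10425430 to 18398594 counts, and 7 entries that name no gene, 0.382 to 0.897% of counts, were left out. The shallower overexpressor libraries give less precise values for genes at low counts. Levels are CPM over library totals of the genes that passed the filter on low counts, scaled by the TMM factors of the fit below. The limits set by 3 counts are the exception and use the unscaled totals of named genes.

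All 12 libraries were fitted together with edgeR 4.0.16 in R 4.3.3 (TMM scaling, filterByExpr, robust quasi-likelihood test, 8 residual degrees of freedom), with salt tested within each genotype, genotype within each treatment, and their interaction. A gene was called at a two-sided Benjamini-Hochberg adjusted p under 0.05 over 18886 genes. Fold changes, standard errors and adjusted p-values without another source named are from this fit, which was also tested on simulated counts. Each standard error was derived as the absolute log2 fold change divided by the square root of the test's F statistic. Alternatives were DESeq2 1.42.0, DESeq2 or upper quartile size factors, no filter, only the 2 groups compared, a replicate block and leaving out each library.

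The members and lists were chosen with earlier results of these data known. The members named by rule were the 8 with the largest called salt response in wild type (mean of at least 1 CPM in salt or mock leaves), the 3 with the highest mean CPM per kb and every member called lower with salt, and up to 3 called genes per list by size of change; other members given by library were chosen after their values were seen. Same-numbered libraries deviated together from their group means, with correlations across genes of 0.132, 0.273 and 0.217 for salt in the overexpressor, 0.355, 0.401 and 0.306 for salt in wild type and 0.663, 0.730 and 0.270 for genotype in mock leaves, so the numbers were read as pairs there. For genotype in salt leaves the correlations were 0.374, -0.0248 and 0.527, so the pairing was not clear for replicate 2. If the numbers pair salt with mock leaves in each genotype, they pair these groups too. Member calls with the replicate block are therefore also given for that comparison. Positions, upstream windows and reading frames were computed from the RefSeq TAIR10.1 assembly and annotation, in which all 36 members were matched by locus identifier.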

Additional observations from a re-analysis of the deposited data

How the results depend on the processing

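Over all alternatives, members called higher with salt numbered 12 to 20 in the overexpressor (15 as reported) and 18 to 22 in wild type (19). Members called lower in the overexpressor were 1 with DESeq2, 1 with the replicate block and 1 with only the 2 groups compared, against 0. In wild type they were 2 with the block (CRK21 and CRK30) and 2 with only the 2 groups (CRK18 and CRK21), against 1. Genes called for salt in the overexpressor were 5327 with the block and 2227 with only the 2 groups, against 3449. For genotype in mock leaves DESeq2 called 200 genes and the fit of only the 2 groups 4, against 19. For genotype in salt leaves DESeq2 called 1799 genes, the block 2344 and the 2 groups alone 13, against 829; members were 1 higher (CRK21) and 1 lower (CRK26) with the block and 1 lower with DESeq2, against 0 and 0. For the interaction, 5 genes were called with DESeq2 size factors, 8 without the filter, 659 with DESeq2 and 379 with the block, against 0, and 2 members were lower with DESeq2. The causes were not tested. An interaction fit of only 2 groups was not possible. The replicate block changed no other call of a member than those given here and beside the salt results.

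With single libraries left out, salt in the overexpressor gave 12 to 18 members higher, 0 to 1 lower and 1519 to 3634 genes; salt in wild type gave 18 to 20 higher, 0 to 2 lower and 5921 to 8444 genes. Genotype gave 3 to 18 genes in mock leaves, and 45 to 1017 genes with 0 to 2 members lower in salt leaves; the interaction gave 0 to 73 genes. No called value reversed under these alternatives. Other scalings moved the median of all genes by at most 0.08 on the log2 scale. Low counts limit CRK26, CRK31 in wild-type mock leaves, and CRK25 and CRK33, for which no difference was detectable at this depth.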
